A study of Mus musculus with 5 samples.

Results

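The protein kinase C (PKC) isoforms are the 8 genes Prkca, Prkcb, Prkcd, Prkce, Prkch, Prkcq, Prkci and Prkcz, out of 54100 gene identifiers counted. They were selected by symbol, and the set was chosen because Prkcq stood on opposite sides of the shControl library in the libraries labelled HIF-1α overexpression and HIF-1α knockdown. The values of those comparisons therefore chose the genes and are given as a description. RNA was sequenced from 5 groups of B16F10 cells, a line from a pigmented mouse melanoma that is known for spreading to the lung, with 1 library for each group.

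The groups were dynamic suspension culture (wild type), conventional 3-dimensional culture (wild type), cells with the genotype label overexpression, cells with the genotype label knockdown, and shControl (genotype label WT). Per the series' design text the cells were enriched for cancer stem cells before lysis, and all 5 carry the same text on growth in serum-free medium on a shaker, so the labels do not say how the conventional culture differed. For each group 3 repeats were pooled into 1 library, so no spread between repeats can be had, no test across conditions was run, and the intervals given cover counting error only. Whether the knockdown and overexpression cells were clones or pools, and what vector they carried, is not given in the sources used here.

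PKCs are serine and threonine kinases that act at membranes. The conventional isoforms alpha and beta need calcium and diacylglycerol, the lipid that phospholipase C releases behind Gq-coupled receptors. The isoforms delta, epsilon, eta and theta respond to diacylglycerol without calcium. The atypical isoforms iota and zeta respond to neither and work with the Par polarity proteins. Phorbol esters, which mimic diacylglycerol, are long-used growth factors of cultured melanocytes, and PKC signalling lies downstream of the Gq mutations of uveal melanoma. PKC theta is best known from T cells and skeletal muscle.

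Transcript levels are given as CPM, the count relative to the library total, scaled by TMM, which sets the libraries to a common composition. The deposited values summed to 61014260 in dynamic suspension, 61267892 in conventional 3D culture, 15393189 in the library labelled overexpression, 14803426 in the library labelled knockdown and 59493240 in shControl. By their pattern the values of the libraries labelled overexpression and knockdown are plain counts and those of the other 3 estimated counts, so in any comparison of a library labelled knockdown or overexpression with shControl the kind of value and the group cannot be told apart. Hif1a, the gene targeted, stood at 391 CPM in dynamic suspension, 542 CPM in conventional 3D culture, 384 CPM in the library labelled overexpression, 95.1 CPM in the library labelled knockdown and 61.3 CPM in shControl. The library labelled knockdown lay above shControl, and the library labelled overexpression lay above shControl but not above the other wild-type libraries. Neither label is thus borne out by Hif1a against every wild-type library, shControl was the lowest of the 5, and directions drawn from these libraries are those of the libraries as labelled.

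All 12 melanocyte lineage markers were at 1 CPM or more in each of the 5 libraries, with a summed level of 15640 to 34320 CPM. The summed level of 12 T cell markers was 0.774 to 4.37 CPM, Cd3d and Cd3e were at 0 in every library, and Lck was the one T cell marker that reached 1 CPM. Of 10 skeletal muscle markers, Des and Mylpf reached 1 CPM, while Myh1, Myh2, Myh4, Myod1 and Myog were at 0 in every library. The 12 markers of other blood cells summed to 3.68 to 21.2 CPM. In bulk RNA, fewer cells of a type and less RNA per cell cannot be told apart.

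The members lie on 8 chromosomes of GRCm38. Prkca (ENSMUSG00000050965) lies at chr11:107933387-108343928 on the minus strand, and Prkcb (ENSMUSG00000052889) at chr7:122288751-122634402 on the plus strand. Prkcd (ENSMUSG00000021948) lies at chr14:30595354-30626210 on the minus strand, Prkce (ENSMUSG00000045038) at chr17:86167785-86657919 on the plus strand, and Prkch (ENSMUSG00000021108) at chr12:73584796-73778185 on the plus strand. Prkcq (ENSMUSG00000026778) lies at chr2:11172108-11301222 on the plus strand, Prkci (ENSMUSG00000037643) at chr3:30995747-31052959 on the plus strand, and Prkcz (ENSMUSG00000029053) at chr4:155260129-155361361 on the minus strand. All are protein coding. Prkch is a neighbour of Hif1a: 123 kb and 2 genes, neither of them protein coding, lie between them.

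The promoters of Prkca and Prkcz are shown because these are the members that were higher beyond 2-fold in dynamic suspension. The sequences are from RefSeq, build GRCm38.p6, minus strand, cut back to the bases before the RefSeq start that lie in no annotated exon. Capitals mark ACGTG and GCGTG on either strand, the core letters of the hypoxia response element that HIF-1 binds.
Prkca, chr11:108343929-108344138: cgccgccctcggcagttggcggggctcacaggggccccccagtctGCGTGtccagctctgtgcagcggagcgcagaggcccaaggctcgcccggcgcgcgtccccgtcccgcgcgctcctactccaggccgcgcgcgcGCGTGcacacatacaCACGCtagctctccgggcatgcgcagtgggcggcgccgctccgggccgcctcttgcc
Prkcz, chr4:155361429-155361678: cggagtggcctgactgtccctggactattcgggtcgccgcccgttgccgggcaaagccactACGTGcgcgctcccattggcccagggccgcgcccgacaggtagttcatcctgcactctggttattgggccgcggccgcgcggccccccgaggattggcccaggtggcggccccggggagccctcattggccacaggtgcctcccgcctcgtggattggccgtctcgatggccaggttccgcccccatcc
The Prkca stretch of 210 bases holds GCGTG 3 times, the last on the opposite strand, and the Prkcz stretch of 250 bases holds ACGTG once. RefSeq gives 3 starts for Prkcz, of which the one shown is the farthest upstream; the 250 bases before the next start (chr4:155345790-155346039) hold neither motif, while over whole windows that start has GCGTG 2 times and the last start has each motif 1 time. Among all 32851 RefSeq windows from 250 bases before to 50 bases after a gene start, 43.8% hold at least 1 of both motifs, so a match is common. Over the whole window, Prkcq has GCGTG 2 times, Prkci has GCGTG 4 times and Prkcb has ACGTG 1 time. For Prkcd, the start farther upstream has ACGTG 2 times and GCGTG 1 time, and the other start has neither. Prkce and Prkch had no window among those searched. A match is a description of letters and not of binding.

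Across the 5 libraries the members fell into 4 kinds. Prkca and Prkcq varied most, with the highest library 14.3 and 16.9 times the lowest, and their highest libraries differed. Prkcz and Prkci varied by 4.67 and 2.94 times. Prkcd and Prkce varied less, at 1.74 and 1.29 times. Prkcb and Prkch stayed under 1 CPM everywhere, so 6 of the 8 members were measured in each comparison.

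**Figure D1:**
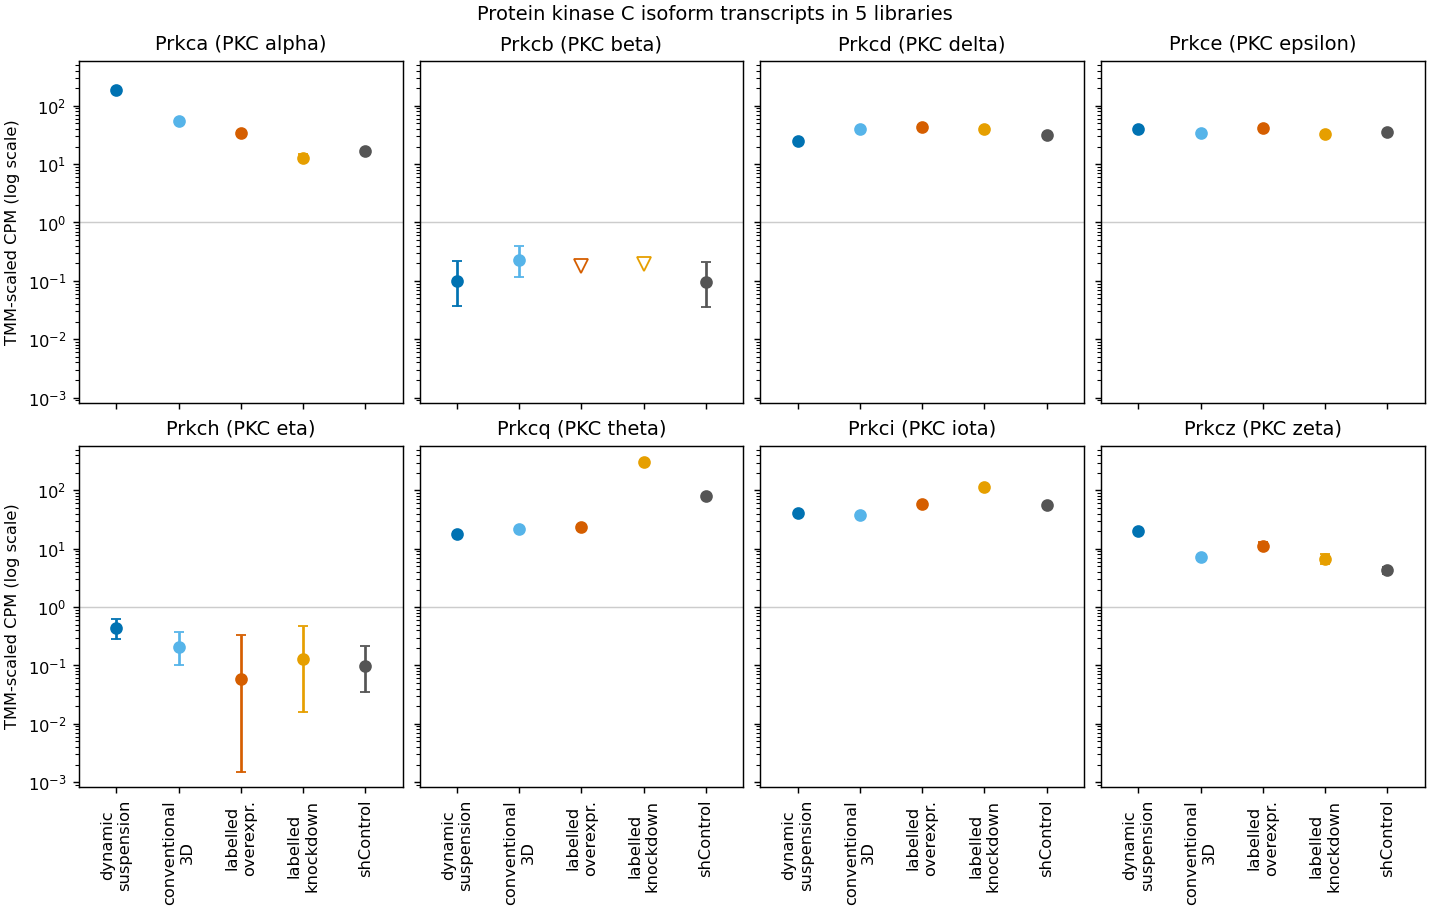
Level of each PKC isoform (TMM-scaled CPM, log axis) in each of the 5 libraries, 1 point a library, with the 95% Poisson interval of the count; open triangles mark the level of 3 counts where the count was 0, and the grey line marks 1 CPM. Prkca was highest in dynamic suspension at 184 CPM and Prkcq in the library labelled knockdown at 307 CPM, while Prkce stayed between 32.6 and 42.0 CPM.

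Among the conventional isoforms, Prkca, a kinase found in most tissues, stood at 184 CPM in dynamic suspension, 54.2 CPM in conventional 3D culture, 34.4 CPM in the library labelled overexpression, 12.9 CPM in the library labelled knockdown and 16.5 CPM in shControl. Dynamic suspension was the highest and the library labelled knockdown the lowest, and the intervals of no 2 libraries overlapped. Its exons overlap the gene Apoh by 30 bases, and Apoh itself had 10 counts in dynamic suspension and 0 in each of the other libraries, against 11102 counts of Prkca in dynamic suspension. Prkcb, an isoform of B cells and neurons that is often lost from melanoma lines, had 6 counts in dynamic suspension, 12 in conventional 3D culture, 0 in the library labelled overexpression, 0 in the library labelled knockdown and 6 in shControl. In the libraries labelled overexpression and knockdown 3 counts equal 0.179 CPM and 0.197 CPM, above the 0.0974 CPM of shControl. At this depth a count of 0 there cannot be told apart from such a level.

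Among the isoforms that respond to diacylglycerol without calcium, Prkcq, which encodes PKC theta, stood at 18.2 CPM in dynamic suspension, 21.7 CPM in conventional 3D culture, 23.2 CPM in the library labelled overexpression, 307 CPM in the library labelled knockdown and 79.9 CPM in shControl. The library labelled knockdown and shControl were the high pair, and the 95% intervals of conventional 3D culture (20.5 to 23.0 CPM) and the library labelled overexpression (20.9 to 25.6 CPM) overlapped. Where Prkcq was high the T cell marker Lck was also higher, at 3.87 CPM in the library labelled knockdown and 4.06 CPM in shControl, against 1.37, 0.789 and 0.655 CPM in dynamic suspension, conventional 3D culture and the library labelled overexpression. The 12 T cell markers summed to 1.57, 0.846, 0.774, 4.07 and 4.37 CPM in dynamic suspension, conventional 3D culture, labelled overexpression, labelled knockdown and shControl, and their part in the level of Prkcq was not tested. Of the CD3 chains, Cd3d and Cd3e were at 0 in all 5 libraries, and Cd3g had 5 counts in shControl and 0 in the other 4. Cd8a and Cd28 had 7 counts each in shControl. Of the 6 annotated Prkcq transcripts, 1 carries a stretch also found in 102 other genes, and its consensus coding transcript shares none of at least 100 bases at 95% identity.

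Prkcd, which encodes PKC delta and is often described as favouring growth arrest or death, stood at 25.1 CPM in dynamic suspension, 40.1 CPM in conventional 3D culture, 43.6 CPM in the library labelled overexpression, 40.2 CPM in the library labelled knockdown and 32.1 CPM in shControl. Prkce, which encodes PKC epsilon, a kinase with transforming activity in rodent fibroblasts, stood at 40.2, 34.1, 42.0, 32.6 and 34.9 CPM in the same order of libraries. Both kept within a 2-fold range over the 5 libraries. The exons of Prkce overlap those of AC154542.1 by 472 bases, and the part of this overlap in its counts was not tested. Prkch, the isoform of stratified epithelia, had 26 counts in dynamic suspension, 11 in conventional 3D culture, 1 in the library labelled overexpression, 2 in the library labelled knockdown and 6 in shControl. It reached 0.430 CPM at most, although its neighbour Hif1a stood at 391 CPM in the same dynamic suspension library.

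Among the atypical isoforms, Prkci, a partner of Par6 that is amplified in several human carcinomas, stood at 40.4 CPM in dynamic suspension, 38.1 CPM in conventional 3D culture, 57.6 CPM in the library labelled overexpression, 112 CPM in the library labelled knockdown and 56.1 CPM in shControl. The library labelled knockdown was the high one. Of the 5 annotated Prkci transcripts, 1 consensus coding transcript shares stretches of up to 164 bases, at up to 96.1% identity, with 7 other genes. Topbp1, Dnajc14, Nek4 and Dleu2 among them had counts in every library, and their part in the counts of Prkci was not tested. Prkcz stood at 19.8 CPM in dynamic suspension, 7.18 CPM in conventional 3D culture, 11.3 CPM in the library labelled overexpression, 6.69 CPM in the library labelled knockdown and 4.24 CPM in shControl. Dynamic suspension was highest, and the intervals of conventional 3D culture (6.48 to 7.94 CPM) and the library labelled knockdown (5.46 to 8.13 CPM) overlapped. Up to 1755 bases of Prkcz are shared at 98.6% identity with the processed pseudogene Prkcz2, which had 105, 96, 35, 13 and 55 counts in dynamic suspension, conventional 3D culture, labelled overexpression, labelled knockdown and shControl, so the split of reads between both genes is uncertain.

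The comparison of dynamic suspension with conventional 3D culture sets estimated counts against estimated counts, and the rule that chose the genes did not name it. The members were still chosen with earlier results of these data known, and the labels do not say how the conventional culture differed. Prkca and Prkcz were higher beyond 2-fold in dynamic suspension, and no member was lower beyond 2-fold. Prkca stood at 184 CPM in dynamic suspension and 54.2 CPM in conventional 3D culture, a log2 ratio of 1.76 (95% interval 1.70 to 1.82), and ranked 267 from the top of 12875 genes. Prkcz stood at 19.8 CPM and 7.18 CPM, a log2 ratio of 1.46 (1.30 to 1.63), or 1.26 with the counts of Prkcz2 added. Prkcd had a log2 ratio of -0.67, Prkcq of -0.26, Prkce of 0.24 and Prkci of 0.08, none of them beyond 2-fold. Of all genes measured, 6.44% were higher and 7.64% lower beyond 2-fold, against 2 of the 6 members measured and 0 of them. The melanocyte markers summed to 19950 CPM in dynamic suspension and 34320 CPM in conventional 3D culture, with 3 of 12 (Pmel, Oca2 and Slc24a5) lower beyond 2-fold, and their part in the result was not tested.

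**Figure D2:**
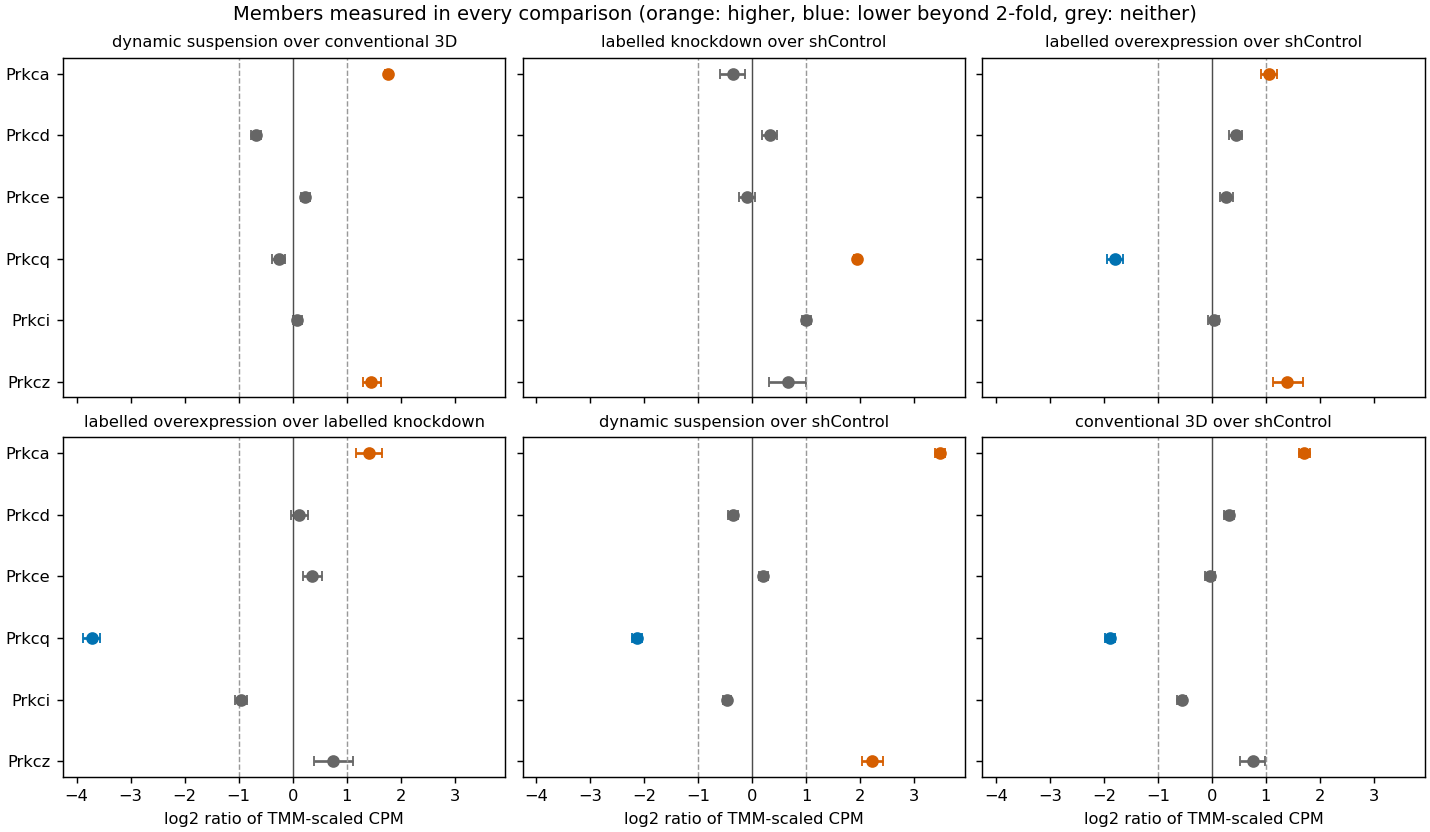
Log2 ratio of TMM-scaled CPM for the 6 members measured, 1 panel for each comparison, with the 95% counting interval; dashed lines mark a 2-fold difference. Prkca lay at 1.76 for dynamic suspension over conventional 3D culture and Prkcq at -3.73 for the library labelled overexpression over that labelled knockdown.

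The comparison of the library labelled overexpression with shControl helped to choose the genes. Prkcq had a log2 ratio of -1.79 (-1.94 to -1.64), Prkca of 1.05 (0.91 to 1.20) and Prkcz of 1.40 (1.13 to 1.69). Prkcd, Prkce and Prkci had log2 ratios of 0.44, 0.27 and 0.04. The count was 2 higher and 1 lower of 6, beside 16.1% higher and 20.1% lower of all genes measured. Prkca lay just past the 2-fold line there and fell short of it at 0.97 with another scaling. The melanocyte markers summed to 30050 CPM in the library labelled overexpression and 26500 CPM in shControl, with 2 of 12 higher and 1 lower.

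The comparison of the library labelled knockdown with shControl chose them too. Prkcq had a log2 ratio of 1.94 (1.883 to 1.999) and was the 1 member higher beyond 2-fold, with 0 lower. Prkci lay at 1.00 (0.91 to 1.08), just under the line before rounding, and passed it at 1.04 with another scaling. Prkcz, Prkcd, Prkce and Prkca had log2 ratios of 0.65, 0.32, -0.10 and -0.36. Of all genes measured, 8.05% were higher and 15.7% lower. The melanocyte markers summed to 15640 CPM in the library labelled knockdown and 26500 CPM in shControl, 6 of the 12 had less there by more than 2-fold, Trpm1 (15.6 CPM against 339 CPM) most of all, and their part in the values of Prkcq and Prkci was not tested.

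Between the libraries of plain counts, labelled overexpression over labelled knockdown, Prkcq had a log2 ratio of -3.73 (-3.88 to -3.58), rank 40 from the lowest of 12305 genes. Prkca was higher beyond 2-fold in the library labelled overexpression at 1.41 (1.18 to 1.66). Prkci lay at -0.96, Prkcz at 0.75, Prkce at 0.37 and Prkcd at 0.12. The melanocyte markers summed to 30050 CPM in the library labelled overexpression and 15640 CPM in the library labelled knockdown, with 7 of 12 higher beyond 2-fold and 0 lower, and their part in these values was not tested. Of the 6 members 1 was higher and 1 lower, beside 17.7% and 14.9% of all genes measured; the choice of the set used both libraries, so nothing is read from this.

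Against shControl, dynamic suspension had Prkca at a log2 ratio of 3.47 (3.38 to 3.57), rank 111 of 12940 genes, Prkcz at 2.21 (2.03 to 2.42) and Prkcq at -2.13. Prkci, Prkcd and Prkce lay at -0.47, -0.36 and 0.21. Conventional 3D culture had Prkca at 1.71 (1.61 to 1.82) and Prkcq at -1.88 (-1.97 to -1.79), with Prkcz at 0.75, Prkci at -0.56, Prkcd at 0.32 and Prkce at -0.03. The background was 13.8% higher and 14.8% lower for dynamic suspension, and 14.0% higher and 14.9% lower for conventional 3D culture. These comparisons share the shControl library with the others against it, so their values for a member are not independent of each other.

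Levels of different genes were compared per kilobase of annotated exon. In dynamic suspension Prkca made up 46.9% of the summed level of the members, ahead of Prkci at 16.7% and Prkce at 12.7%. In conventional 3D culture Prkcd led with 24.8%, next to Prkci with 23.6% and Prkca with 20.7%. In the library labelled overexpression Prkci led with 31.5% and Prkcd followed with 23.9%. Prkcq made up 55.7% in the library labelled knockdown, beside Prkci with 26.0% and Prkca with 1.84%. In shControl Prkcq and Prkci were near each other, at 32.7% and 29.3%. The leading isoform was thus Prkca, Prkcd, Prkci, Prkcq and Prkcq in turn, and with the length of the longest transcript in place of all exons the lead in the library labelled overexpression passed to Prkcd with 32.6%, with the other 4 leaders as before.

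By class, the calcium-dependent members held 47.0% in dynamic suspension, 20.8% in conventional 3D culture, 11.6% in the library labelled overexpression, 1.84% in the library labelled knockdown and 5.36% in shControl. The calcium-independent, diacylglycerol-responsive members held 29.1%, 51.7%, 51.4%, 70.8% and 63.4% in the same order. The atypical members moved least, between 23.9% and 37.0%. The summed level was 43.6 CPM per kilobase in dynamic suspension, 29.1 in conventional 3D culture, 32.9 in the library labelled overexpression, 77.8 in the library labelled knockdown and 34.5 in shControl.

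The ratio of Prkcq counts to Prkca counts within a library needs no scaling between libraries. It was 0.0990 (0.0930 to 0.105) in dynamic suspension, 0.401 (0.374 to 0.429) in conventional 3D culture, 0.674 (0.591 to 0.768) in the library labelled overexpression, 23.9 (20.7 to 27.7) in the library labelled knockdown and 4.84 (4.52 to 5.18) in shControl. Prkca counts exceeded Prkcq counts in the first 3 and Prkcq counts exceeded Prkca counts in the other 2, and no intervals overlapped.

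**Figure D3:**
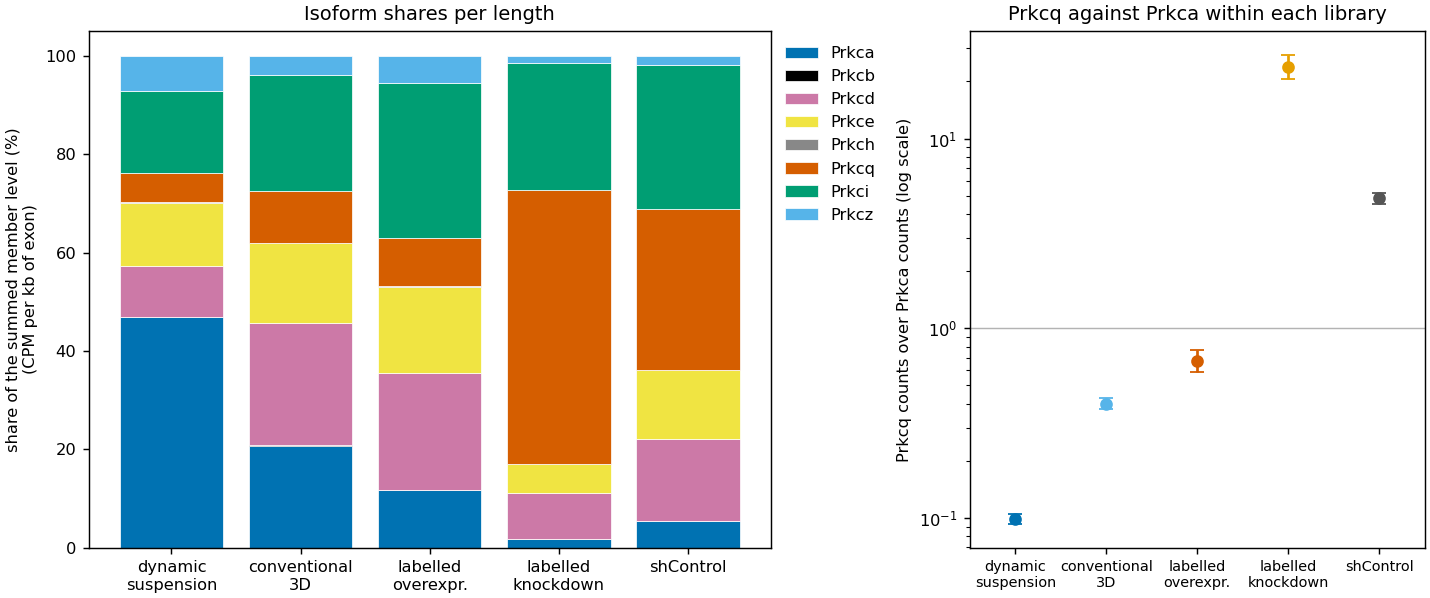
Left, the share of each member in the summed level of the 8 members (CPM per kilobase of exon, percent) in each library; right, the ratio of Prkcq to Prkca counts within each library (log axis) with its 95% counting interval. Prkca took 46.9% in dynamic suspension and Prkcq 55.7% in the library labelled knockdown, and the ratio lay between 0.0990 and 23.9.

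The distance between profiles was taken as the Euclidean distance of log2 levels over the 5 libraries after each gene was centred on its mean. Within the set, Prkca and Prkcq were the farthest pair at 6.22 and Prkcd and Prkce the nearest at 0.78, while Prkca and Prkcz lay 1.87 apart. Among 7067 protein-coding genes that share no exon with another gene, those nearest to Prkcq were Cth at 0.65, Ndst3 at 0.93, Dut at 0.95, Frmd3 at 1.00 and Cdt1 at 1.01. Cth, the gene of cystathionine gamma-lyase, stood at 2.90 CPM in dynamic suspension, 5.51 CPM in conventional 3D culture, 5.60 CPM in the library labelled overexpression, 55.2 CPM in the library labelled knockdown and 21.3 CPM in shControl. Cdt1, a licensing factor of DNA replication, stood at 10.4, 26.9, 29.2, 256 and 101 CPM in that order. All 5 were picked for a profile near that of Prkcq, so their likeness to it follows from that choice. Their highest level lay in the library labelled knockdown and the next in shControl, over 5 libraries that give 1 value each.

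**Figure D4:**
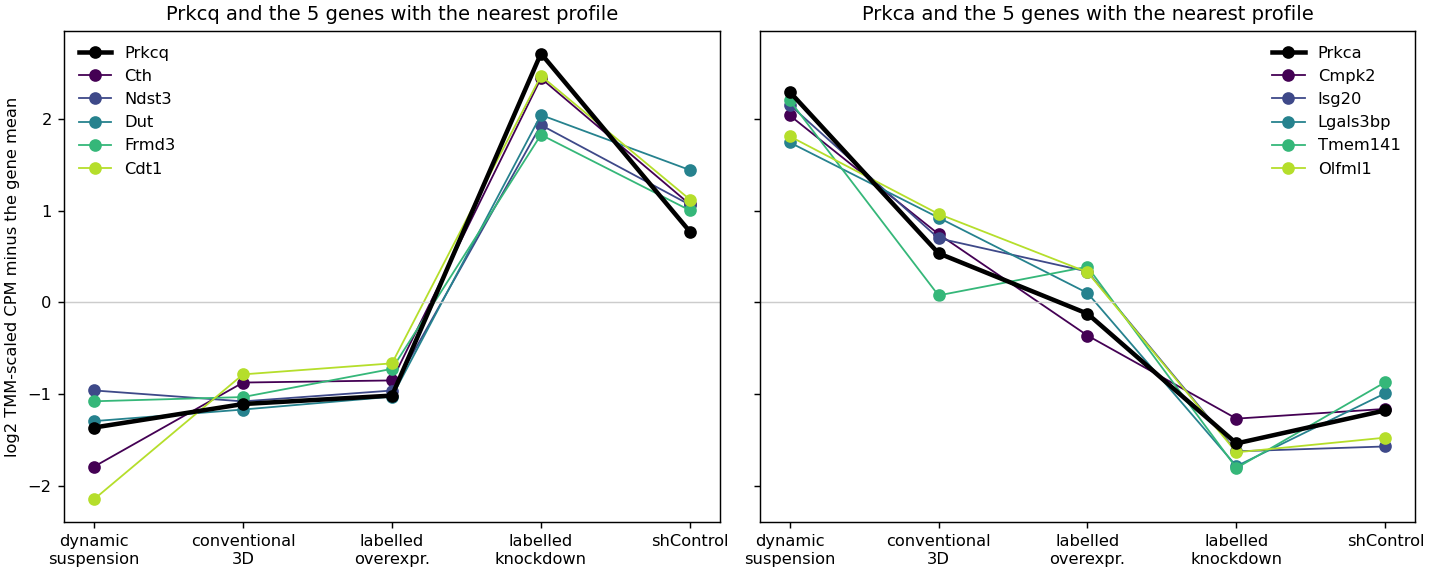
Centred log2 level (TMM-scaled CPM) of Prkcq, left, and Prkca, right, each with the 5 genes nearest to it by profile over the 5 libraries. Prkcq and its neighbours peak in the library labelled knockdown, and Prkca and its neighbours in dynamic suspension. The neighbours were picked for this likeness, so a shared peak follows from the choice.

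The wider pathway was described by 8 lists of 95 genes in all, of which 72 to 76 were measured. In dynamic suspension against conventional 3D culture 7 of 74 were higher and 9 lower beyond 2-fold (9.46% and 12.2%). In the library labelled overexpression against shControl 13 of 76 were higher and 7 lower, and in the library labelled knockdown against shControl 11 of 74 were higher and 5 lower. These shares stand beside the 6.44% and 7.64%, 16.1% and 20.1%, and 8.05% and 15.7% of all genes.

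Upstream, phospholipase C makes diacylglycerol. Of 11 measured genes 1 was higher and 2 lower in dynamic suspension against conventional 3D culture, beside 6.44% and 7.64% of all genes. Plcd1 stood at 28.0 CPM in dynamic suspension and 11.3 CPM in conventional 3D culture, and Plcb4, a beta form that Gq activates, at 25.5 CPM and 62.0 CPM. No gene of 9 measured (0 of 9) passed in either direction in the library labelled knockdown against shControl. Among all genes 8.05% were higher and 15.7% lower there. In the library labelled overexpression against shControl 2 of 11 were higher and 1 lower, beside 16.1% and 20.1% of all genes. Plch2, Plcb2 and Plch1, the 3 that passed, were under 4 CPM in both libraries.

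The diacylglycerol kinases end the signal by turning the lipid into phosphatidic acid. In the library labelled overexpression against shControl 4 of 7 measured were higher beyond 2-fold and 0 lower, beside 16.1% and 20.1% of all genes. The median log2 ratio of the list was 1.07, beside -0.02 for all genes. Dgkz stood at 299 CPM in the library labelled overexpression and 87.1 CPM in shControl, and Dgka at 13.8 CPM and 3.96 CPM. Against shControl, 1 of 7 was higher in the library labelled knockdown, Dgkz at 178 CPM against 87.1 CPM, beside 8.05% of all genes. Dgkz also stood at 108 CPM in dynamic suspension and 213 CPM in conventional 3D culture, so shControl was its lowest library. In dynamic suspension against conventional 3D culture 1 of 7 was higher, Dgki at 1.97 CPM against 0.658 CPM, beside 6.44% of all genes.

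Other proteins bind diacylglycerol through the same C1 domain. Rasgrp3, a Ras activator in melanoma with Gq mutations, stood at 308 CPM in the library labelled overexpression and 353 CPM in conventional 3D culture, each against 110 CPM in shControl (log2 ratios 1.49 and 1.69). Unc13a, a priming factor of secretory vesicles, stood at 16.1 CPM in the library labelled overexpression and 2.45 CPM in shControl. Against shControl, 2 of 7 measured genes of the list were higher and 1 lower in the library labelled overexpression. Among all genes 16.1% were higher and 20.1% lower there. The lower gene of the list was Chn1, at 6.49 CPM against 14.1 CPM. Chn1 also stood at 5.11 CPM in dynamic suspension and 5.24 CPM in conventional 3D culture. The library labelled knockdown had 1 of 7 higher and 1 lower against shControl, beside 8.05% and 15.7% of all genes. Rasgrp2 stood at 18.5 CPM against 5.29 CPM and Unc13b at 3.41 CPM against 10.7 CPM. Chn2, a Rac GTPase-activating protein, stood at 58.4 CPM in dynamic suspension against 26.5 CPM in conventional 3D culture. It was the 1 gene of 6 measured that was higher there, beside 6.44% of all genes.

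PKCs are primed by PDK1 and mTORC2 and dephosphorylated by the PHLPP phosphatases. All 10 genes of that list were measured. Phlpp1 was lower in dynamic suspension, at 44.6 CPM against 91.1 CPM in conventional 3D culture, the 1 gene of the list beyond 2-fold there. Among all genes 6.44% were higher and 7.64% lower. Phlpp1 stood at 126 CPM in the library labelled overexpression and 63.5 CPM in the library labelled knockdown, each against 26.5 CPM in shControl. Against shControl, 2 of 10 were higher and 0 lower in the library labelled overexpression, beside 16.1% and 20.1% of all genes. The library labelled knockdown had 2 higher and 2 lower, beside 8.05% and 15.7% of all genes. In the library labelled knockdown against shControl, Rictor, the defining subunit of mTORC2, stood at 30.9 CPM against 83.0 CPM and its partner Mlst8 at 11.8 CPM against 23.9 CPM, while Mtor, the kinase of the complex, stood at 129.8 CPM against 60.9 CPM.

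Of the polarity partners of the atypical isoforms, 0 of 13 measured passed in dynamic suspension against conventional 3D culture. Among all genes 6.44% were higher and 7.64% lower there. In the library labelled knockdown against shControl 4 of 13 were higher and 0 lower, beside 8.05% and 15.7% of all genes. The 4 were Pard6a, the adaptor that binds Prkci and Prkcz, at 12.0 CPM against 4.11 CPM, and Crb2, Llgl1 and Llgl2. The log2 ratios of Crb2, Llgl1 and Llgl2 were 1.33, 1.09 and 1.05. Pard6a also stood at 10.8 CPM in dynamic suspension and 8.74 CPM in conventional 3D culture, so shControl was its lowest library. The library labelled overexpression had 2 of 13 higher and 1 lower against shControl, beside 16.1% and 20.1% of all genes. Pard6a stood at 10.5 CPM there against 4.11 CPM and Llgl2 at 25.8 CPM against 12.2 CPM. Wwc1, which encodes the PKC zeta-binding protein KIBRA, stood at 16.02 CPM in the library labelled overexpression and 40.6 CPM in shControl. Wwc1 was lower still in dynamic suspension (7.00 CPM) and conventional 3D culture (12.7 CPM), and stood at 61.8 CPM in the library labelled knockdown.

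In T cells PKC theta signals to NF-kappaB through BCL10 and MALT1. Bcl10 was between 18.3 and 30.2 CPM and Malt1 between 7.61 and 15.2 CPM. Card10, a scaffold that binds BCL10 in non-blood cells, stood at 18.0 CPM in dynamic suspension, 0.320 CPM in conventional 3D culture, 3.69 CPM in the library labelled overexpression, 8.93 CPM in the library labelled knockdown and 3.54 CPM in shControl. Its log2 ratio of dynamic suspension over conventional 3D culture was 5.62 (5.13 to 6.60), from 1087 and 17 counts.

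Of the PKC substrates measured, 3 of 13 were higher and 4 lower in dynamic suspension against conventional 3D culture. Among all genes 6.44% were higher and 7.64% lower there. Akap12, a scaffold that binds PKC, stood at 34.5 CPM in dynamic suspension and 7.93 CPM in conventional 3D culture, and Sdc4, a heparan sulfate receptor that binds PKC alpha, at 160 CPM and 63.7 CPM. Marcks, the classic membrane substrate, stood at 50.3 CPM and 255 CPM, and Rgs2 at 1.72 CPM and 6.92 CPM. Against shControl, 0 of 14 were higher and 4 lower in the library labelled overexpression, beside 16.1% and 20.1% of all genes. Akap12 stood at 6.01 CPM there against 63.7 CPM in shControl. Gap43, the neuronal substrate, had 0 counts in the library labelled overexpression and 156 in shControl, at least 14.2-fold lower with a floor of 3 counts in the library labelled overexpression.

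Against shControl, 2 of 14 substrates were higher in the library labelled knockdown, Ppp1r14b at 288 CPM against 81.6 CPM and Marcksl1 at 309 CPM against 148 CPM. Another 2 were lower, in a comparison with 8.05% of all genes higher and 15.7% lower. Cavin2, a caveolar coat protein, stood at 26.5 CPM in the library labelled knockdown and 61.6 CPM in shControl. It also stood at 34.2 CPM in dynamic suspension, 16.25 CPM in conventional 3D culture and 32.3 CPM in the library labelled overexpression. Gap43 had 0 counts in the library labelled knockdown against 156, at least 12.9-fold lower with the same floor per library.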

How the data were processed

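Poly(A) RNA libraries were strand-specific and read as paired ends, per the labels' protocols. HISAT2, StringTie and cutadapt, and the builds GRCm38.p6 and mm10, are named per the submitters' processing notes; the counting program is not given in the sources used here. The deposited values are counts in the libraries labelled knockdown and overexpression, and by their pattern estimated counts in the other 3 deposited columns, used as whole numbers; intervals for these may be too narrow. All 54100 identifiers matched GENCODE M21, and 0 columns were left unassigned. TMM factors came from edgeR 4.0.16 in R 4.3.3 over all 5 libraries. Log2 ratios used a prior count of 2, with exact conditional binomial (Clopper-Pearson) 95% intervals; levels have exact Poisson intervals. A gene was measured at a mean of at least 1 CPM over both libraries compared, and called beyond 2-fold when its log2 ratio reached 1 in size and the interval excluded a ratio of 1. The procedure was tested on simulated data. Shared sequence was searched with BLAST+ 2.17.0 (at least 100 bases, 95% identity). The members and the 12 gene lists were chosen with earlier results of these data known. Named genes were the members, up to 2 called genes in each direction per list and comparison, list markers, and the 5 genes nearest to Prkcq; Bcl10, Malt1, Llgl1, Llgl2, Oca2, Slc24a5, Trpm1, Hif1a, Apoh, Prkcz2 and the neighbours of Prkca were added after their values were seen. Some genes that the rule or the lists hold are not reported here.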

Additional observations from a re-analysis of the deposited data

How the results depend on the processing

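With 1 library for each group no replicate could be left out, and no value here measures variation between cultures. No paired analysis was possible because each group has 1 library. Of 350 log2 ratios of members under other settings, 15 moved out of their counting interval. None of those beyond 2-fold (0) changed sign, while 3 values of 2 ratios near zero did: Prkci in the library labelled overexpression against shControl (-0.05, against 0.04) with TMM from protein-coding genes that share no exon, and Prkce in conventional 3D culture against shControl (0.005 and 0.003, against -0.03) with TMM from the 2 libraries compared or without the library labelled knockdown. Of 116 counts of members 113 stayed as they were. Members higher in the library labelled knockdown against shControl became 2 with median-of-ratios size factors, since Prkci passed the line. Members higher in the library labelled overexpression against shControl became 1 with TMM from protein-coding genes that share no exon, without Prkca, and 1 with a mean of at least 10 CPM, without Prkcz. With the longest transcript as length, the shares became 39.6% for Prkca in dynamic suspension, 33.9% for Prkcd in conventional 3D culture, 26.1% for Prkci in the library labelled overexpression, and 62.5% and 38.8% for Prkcq in the library labelled knockdown and shControl. Scaling by total counts moved the median of all genes to 0.17 and the calls to 1117 higher and 703 lower (829 and 984 with TMM) in dynamic suspension against conventional 3D culture, and to -0.26 with 1275 higher and 2740 lower (1815 and 1920) in conventional 3D culture against shControl. TMM from protein-coding genes that share no exon moved it to -0.11 in the library labelled overexpression against shControl. Without a filter on low values the calls in dynamic suspension against conventional 3D culture were 2470 higher and 2215 lower, and with a mean of at least 10 CPM they were 372 and 471; the other 5 comparisons moved the same way. Adding Prkcz2 counts and TMM without the library labelled knockdown were chosen after seeing the data.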

Other observations

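The 5 genes nearest to Prkca by profile, looked up after its values were seen, were Cmpk2 at 0.49, Isg20 at 0.65, Lgals3bp at 0.78, Tmem141 at 0.80 and Olfml1 at 0.85. Cmpk2, a mitochondrial nucleotide kinase known as induced by interferon, stood at 64.6 CPM in dynamic suspension, 26.3 CPM in conventional 3D culture, 12.2 CPM in the library labelled overexpression, 6.50 CPM in the library labelled knockdown and 7.00 CPM in shControl. Isg20, an exonuclease also known as induced by interferon, stood at 18.6, 6.75, 5.24, 1.31 and 1.36 CPM in that order. Lgals3bp, a secreted glycoprotein, stood at 921 CPM in dynamic suspension and 79.9 CPM in the library labelled knockdown, its highest and lowest values. All 5 genes were picked for a profile near that of Prkca, so their likeness to it follows from that choice. They were highest in dynamic suspension and lowest in the library labelled knockdown. With 5 libraries the likeness of profiles is a description.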
